A study of Drosophila melanogaster with 16 samples.

Results

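The Niemann-Pick type C genes encode proteins that carry sterol out of the endosomal and lysosomal compartment. The family was taken as every gene of the table named as a Niemann-Pick type C-1 or type C-2 gene, which gave 10 of 16680 genes: Npc1a and Npc1b of the NPC1 type, and Npc2a, Npc2b, Npc2c, Npc2d, Npc2e, Npc2f, Npc2g and Npc2h of the NPC2 type. The rule goes by gene name and uses no measured value. Of these, 8 passed the filter on low counts and were tested; Npc2c and Npc2e had too few reads to be tested.

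Insects cannot make sterols and take them from food. In mammals, soluble NPC2 binds sterol released in the lysosome and hands it to NPC1, a membrane protein with a sterol-sensing domain. In Drosophila, Npc1b is known for sterol absorption by the midgut epithelium, and Npc1a for sterol traffic within cells of many tissues. Npc2a and Npc2b are known in the fly to act redundantly in sterol homeostasis, and Npc2a, Npc2e and Npc2h also to bind components of bacterial walls. No role is stated here for Npc2c, Npc2d, Npc2f or Npc2g beyond membership of the NPC2 type.

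RNA was sequenced from midguts, the stretch of the fly gut that digests and absorbs food, of virgin females and virgin males. The control genotype is given as w1118; mex1-GAL4 TS/+, which holds an enterocyte driver. The other genotype, labelled mex1TS > MycRNAi GD1419, joins that driver to an RNAi line against Myc, so all 4 groups carry the driver. The suffix TS is not spelled out in the labels and age was not used here. The driver acts in enterocytes, the absorptive cells, while whole midguts with all their cell types were collected, and 1 RNAi line was used. Each group holds 4 libraries, each from a separate pool of 30 midguts.

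Total counts ran from 16630050 to 53586401 per library. Myc transcript, the target of the RNAi, was 60.5 to 127 CPM (TMM-scaled read counts relative to library size, the unit used below) in female controls and 43.7 to 83.6 CPM in RNAi-labelled females. In males it was 19.8 to 34 CPM in controls and 30.6 to 60.2 CPM in the RNAi-labelled libraries. The log2 fold change was −0.59 ± 0.26 (SE) in females and 0.65 ± 0.26 in males, and neither passed the edgeR quasi-likelihood test (adjusted p = 0.0892 and 0.0619). The male rise of Myc passed with DESeq2 (0.0491), with scaling by total counts (0.00606) and without replicate 1, 8, 9 or 13 (0.0328 to 0.0484), and the female fall without replicate 3, 9 or 16 (0.0288 to 0.0486). The male direction goes against the label, so these libraries are named by their label, as RNAi-labelled, throughout. Replicate 16, a male RNAi-labelled library, held 24722 reads of 9 testis germline markers, against 154 to 258 reads in the other libraries of its group. Results that turn on it are given with and without it.

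The NPC1-type genes lie on different chromosomes. Npc1a (FBgn0024320) is on chromosome 2L from 10213812 to 10221216, minus strand, in the BDGP6 assembly, and Npc1b (FBgn0261675) is on chromosome X from 20934869 to 20939503, plus strand. Among the NPC2-type genes, Npc2a (FBgn0031381) is on chromosome 2L from 1988290 to 1988940. Npc2b (FBgn0038198) is on chromosome 3R from 14089517 to 14092425, and Npc2f (FBgn0039154) on 3R from 24137895 to 24140936, all 3 on the plus strand. The genes Npc2e, Npc2d and Npc2c follow each other on 3R within 7805 bp, from 10053332 to 10061136, with Npc2d (10055356 to 10056083) on the strand opposite to its neighbours. Npc2g and Npc2h also lie side by side on 3R, within 1686 bp from 30744605 to 30746290. Exons of Npc2c share 414 bp with the antisense gene asRNA:CR45205 and those of Npc2e 611 bp with asRNA:CR44192. The strand setting of the counting is not given in the sources used here, so reads of those pairs cannot be told apart.

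Family members differed widely in level. Per kilobase of exon, Npc2f was the highest member in controls, at 498 ± 185 CPM per kb in females and 419 ± 77.8 in males (SD, n = 4 libraries, as for each mean below). Npc1b followed at 263 ± 75.7 and 189 ± 44.5 CPM per kb, Npc2d at 134 ± 69.3 and 157 ± 28.7, and Npc2a at 66.9 ± 20.3 and 80.9 ± 19.4. In female controls the libraries of each of these neighbours in the order overlapped. In male controls Npc2f stood clear of Npc1b and Npc2d of Npc2a, whereas Npc1b and Npc2d overlapped. Npc1a (10.4 and 10.6 CPM per kb in females and males) and Npc2b (9.3 and 8.2) came next and overlapped in both sexes, clear of Npc2a above and of Npc2g below.

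The order was different in the RNAi-labelled libraries. Npc2a stood at 288 ± 39.9 CPM per kb in females and 292 ± 64.1 in males, next to Npc2f at 377 ± 33.1 and 270 ± 111. Libraries of these members overlapped in both sexes. Npc1a, at 19.7 ± 1.48 and 22.6 ± 3.01 CPM per kb, was now clear of Npc2b, at 10.9 ± 0.81 and 8.49 ± 3.64. Npc1b held 237 ± 67.3 CPM per kb in females and 123 ± 25.6 in males. Using the longest transcript in place of all exons kept the ranks of the 10 members in every group.

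**Figure D1:**
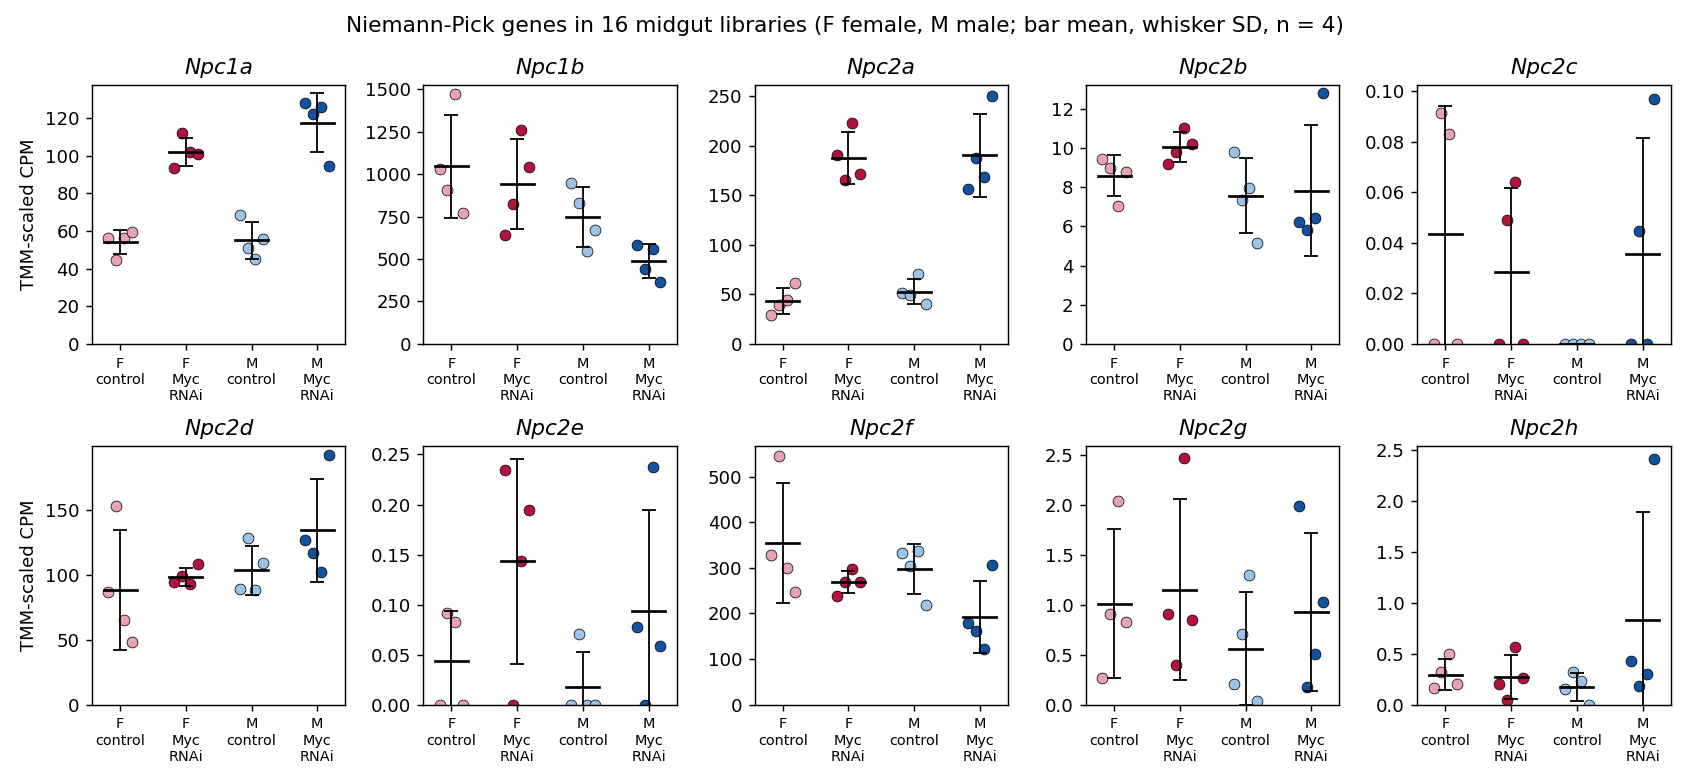
Level of the 10 family members in each library, in TMM-scaled CPM on linear axes that start at 0, with 1 panel per gene and 1 point per library. Bars are means and whiskers SD over 4 libraries; Npc1a and Npc2a are higher in every RNAi-labelled library than in every control of the same sex.

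Against controls, 2 of the 8 tested members rose in females (25%) and 2 rose in males, and none fell by edgeR in either sex. Over all 9314 tested genes, 36.1% changed in females (18.5% rose, 17.6% fell) and 39.4% in males (21.7% rose, 17.7% fell). With 2 of 8 members called, these shares do not set the family apart from genes at large. An unadjusted p below 0.05 was found for 2 members in females and 5 in males, where 44% and 46.8% of all genes had one. The same genes, Npc1a and Npc2a, rose in both sexes. DESeq2 and limma voom called the same 2 members in females, where they called 39.2% and 35.8% of all genes. In males each called 5 members, with 41.7% and 39.1% of all genes called: Npc1a, Npc2a and Npc2h higher, and Npc1b and Npc2f lower. The median log2 fold change over the 8 members was 0.18 in females and 0.55 in males, beside 0 and 0.05 over all tested genes. The male median lies between Npc2d at 0.38 and Npc2g, a gene of few reads, at 0.73 ± 0.85 (SE). Without replicate 16 these members were at 0.15 and 0.68.

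Npc1a, the broadly used sterol transporter of late endosomes and lysosomes, measured 56.1, 44.7, 56.2 and 59.3 CPM in female controls and 93.6, 112, 102 and 101 CPM in RNAi-labelled females. It measured 68.3, 50.9, 45.3 and 56 CPM in male controls and 128, 122, 126 and 94.5 CPM in RNAi-labelled males. Every RNAi-labelled library was above every control of its sex, and the lowest male value, 94.5 CPM, is that of replicate 16. Such separation with higher libraries was found for 19.5% of all tested genes in females and 18.8% in males. The log2 fold change of Npc1a was 0.92 ± 0.14 (SE; edgeR adjusted p = 0.000101) in females and 1.09 ± 0.14 (adjusted p = 1.36e-05) in males, or 1.89-fold and 2.13-fold. The female and male changes differed by −0.18 ± 0.2 (adjusted p = 0.828 for the interaction).

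Npc1b, the transporter known for dietary sterol uptake, was far more abundant than Npc1a in every library. It measured 1030, 906, 1470 and 774 CPM in female controls and 642, 827, 1260 and 1040 CPM in RNAi-labelled females, which overlap broadly. Male controls measured 950, 830, 548 and 671 CPM, and RNAi-labelled males 582, 443, 558 and 365 CPM. Here 2 RNAi-labelled libraries exceeded the lowest male control. The log2 fold change was −0.15 ± 0.24 in females (edgeR adjusted p = 0.691) and −0.62 ± 0.24 in males (adjusted p = 0.0531). The male value lies at the threshold: it passed in 11 of 23 alternative analyses, among them DESeq2 (adjusted p = 0.0239) and limma voom (0.0489). Scaled by total counts it was −0.13 (adjusted p = 0.665). The lowest RNAi-labelled male library, at 365 CPM, is replicate 16. Without that library the male log2 fold change of Npc1b was −0.51 (edgeR adjusted p = 0.135).

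Relative to Npc1a, Npc1b was lower in the RNAi-labelled libraries. Per kilobase, Npc1b was 17.1 to 34.1 times Npc1a in female controls and 8.98 to 16.2 times in RNAi-labelled females. In males the ratio was 15.7 to 21.3 in controls and 4.76 to 5.95 in RNAi-labelled libraries, with no overlap in either sex. Npc1b made up 96 ± 1.13% of the NPC1-type level in female controls, 94.6 ± 0.698% in male controls, 92 ± 2% in RNAi-labelled females and 84.2 ± 1.44% in the males. These ratios are descriptions and were not tested.

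Npc2a, one of the soluble sterol binders, showed the largest rise among the members called. It measured 29.2, 39.6, 44.5 and 61 CPM in female controls and 190, 165, 223 and 171 CPM in RNAi-labelled females. In males, controls measured 51.7, 48.9, 70.1 and 39.9 CPM and RNAi-labelled libraries 156, 187, 168 and 250 CPM, the last being replicate 16. Every RNAi-labelled library lay above every control of its sex. The log2 fold change was 2.10 ± 0.23 in females (4.3-fold; edgeR adjusted p = 4.12e-06) and 1.85 ± 0.22 in males (3.61-fold; adjusted p = 6.34e-06). By p, Npc2a ranked 151 among the 9314 genes in females and 479 in males. The interaction was 0.25 ± 0.31 (adjusted p = 0.849). Npc1a and Npc2a passed in all 23 alternative analyses in both sexes.

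Npc2f, the most abundant NPC2-type gene of the control midgut, measured 327, 546, 300 and 246 CPM in female controls and 239, 269, 297 and 268 CPM in RNAi-labelled females. It measured 333, 303, 337 and 218 CPM in male controls and 178, 162, 123 and 306 CPM in RNAi-labelled males. The value of 306 CPM is replicate 16, and the other 3 libraries lie below all male controls. The log2 fold change was −0.40 ± 0.26 in females (edgeR adjusted p = 0.262) and −0.63 ± 0.26 in males (adjusted p = 0.0693). Without replicate 16 the male value was −0.95 (adjusted p = 0.00463). The male fall was also called without replicate 2 (0.0253) or 8 (0.0428) and, with all libraries, by DESeq2 (−0.66, adjusted p = 0.0336) and limma voom (−0.73, 0.0315), whereas scaling by total counts gave −0.15 (0.576).

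Npc2d measured 87, 153, 65 and 48.4 CPM in female controls and 94.3, 98.8, 93.1 and 108 CPM in RNAi-labelled females. It measured 88.9, 128, 88.5 and 109 CPM in male controls and 127, 117, 102 and 192 CPM in RNAi-labelled males. Groups overlapped in both sexes, and the log2 fold changes of 0.16 ± 0.28 and 0.38 ± 0.28 did not pass (edgeR adjusted p = 0.712 and 0.311). The male value of 192 CPM is replicate 16, and without it the male log2 fold change was 0.15 (adjusted p = 0.7).

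Npc2b, which acts with Npc2a in the fly, stayed low. It ranged from 7.06 to 9.46 CPM in female controls and from 9.2 to 11 CPM in RNAi-labelled females, and from 5.16 to 9.78 and 5.81 to 12.8 CPM in the male groups. Its log2 fold change was 0.23 ± 0.24 in females (edgeR adjusted p = 0.5) and 0.06 ± 0.24 in males (adjusted p = 0.861), so Npc2b gave no call beside the rise of Npc2a. The difference between these genes was not tested. The value of 12.8 CPM is replicate 16, without which the male log2 fold change was −0.29 (adjusted p = 0.234).

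Npc2g and Npc2h, the neighbouring pair on 3R, were near the lower limit of detection. Libraries held 2 to 154 reads of Npc2g and 0 to 124 reads of Npc2h. Npc2g had a log2 fold change of 0.21 ± 0.83 in females and 0.73 ± 0.85 in males (edgeR adjusted p = 0.88 and 0.541). Npc2h gave −0.06 ± 0.92 in females (adjusted p = 0.968) and 2.33 ± 0.91 in males (adjusted p = 0.0518). The male value rests on replicate 16, which measured 2.41 CPM against 0.179 to 0.429 in the other 3 libraries; without it the log2 fold change was 0.87 (adjusted p = 0.438).

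Npc2c and Npc2e were almost undetected. Npc2c had 15 reads over all 16 libraries, with 4 in female controls, 5 in RNAi-labelled females, 6 in RNAi-labelled males and 0 in male controls, where 3 counts would correspond to 0.0204 CPM over the group. Npc2e had 40 reads, of which 4 and 2 were in female and male controls and 22 and 12 in RNAi-labelled females and males. Neither gene is compared between groups at this depth; these limits cover counting error only.

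**Figure D2:**
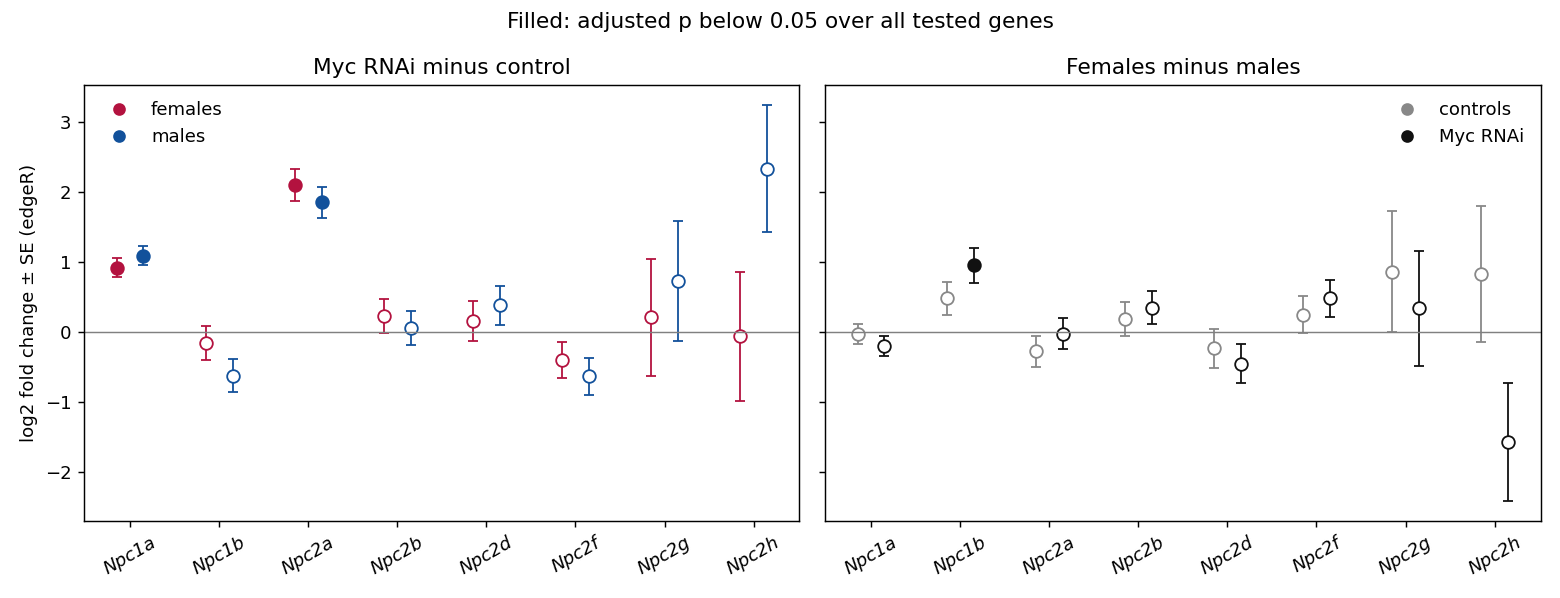
Log2 fold change with its standard error for the 8 tested members, on the left for RNAi-labelled libraries against controls in each sex and on the right for females against males in each genotype. Filled points passed the edgeR test, which are Npc1a and Npc2a on the left and Npc1b among RNAi-labelled libraries on the right.

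The NPC2-type genes are next described by their make-up. Their summed level was 710 ± 245 CPM per kb in female controls and 826 ± 61.2 in RNAi-labelled females. It was 666 ± 86.1 and 776 ± 234 in the corresponding male groups, so the sums overlapped in both sexes. RNAi-labelled males held 692, 700, 594 and 1120 CPM per kb, the last being replicate 16, beside 538 to 726 in male controls. Npc2a held 10.5 ± 5.52% of the summed level in female controls and 34.8 ± 3% in RNAi-labelled females, and 12.1 ± 1.83% and 38.4 ± 4.67% in males. Npc2f went from 69.7 ± 2.54% to 45.6 ± 1.97% in females and from 62.5 ± 4.76% to 34 ± 4.05% in males. Npc2d held 18.1 ± 3.52% and 18.1 ± 1.96% in females and 24 ± 6.01% and 26.2 ± 1% in males.

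Library by library, Npc2a stood at 0.0793 to 0.271 times the per-kilobase level of Npc2f in female controls and at 0.673 to 0.871 times in RNAi-labelled females. In males the ratio was 0.17 to 0.227 in controls and 0.894 to 1.49 in RNAi-labelled libraries. Groups did not overlap within either sex. Shares of a sum are tied to each other, and these are descriptions without a test.

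**Figure D3:**
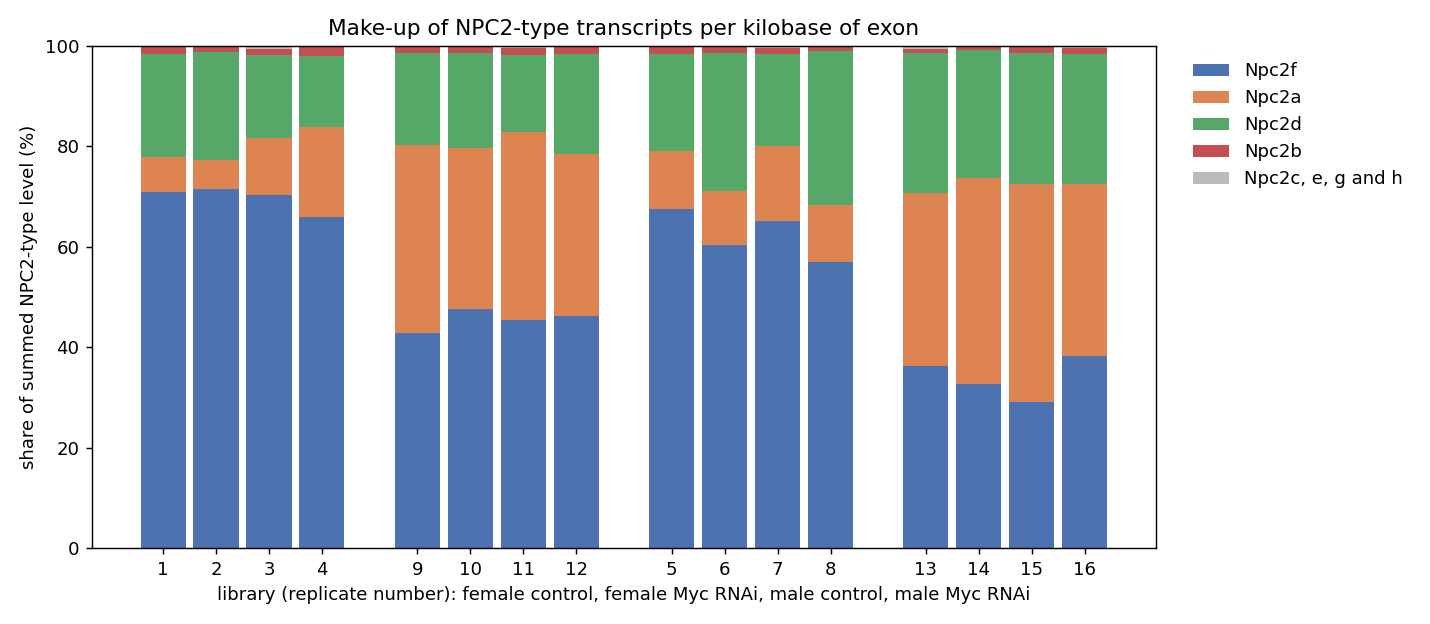
Share of the summed NPC2-type level (CPM per kb) held by each member, 1 stacked bar per library, ordered by group. Npc2f holds most of each control bar, and the Npc2a share averages 34.8% in RNAi-labelled females and 38.4% in RNAi-labelled males, against 10.5% and 12.1% in controls.

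Few members differed between the sexes. Among controls, none of the 8 tested members differed between females and males by edgeR, where 10.3% of all genes did. DESeq2 and limma voom called none. None had an unadjusted edgeR p below 0.05, where 2108 of the 9314 tested genes had 0.0414 or lower. In the RNAi-labelled libraries 1 member, Npc1b, was higher in females (12.5% of the tested members, where 5.56% of all genes were called and 2.85% were higher). Its female values of 642 to 1260 CPM lay above all male values of 365 to 582 CPM, a separation with higher females that 7.1% of all genes showed. The log2 difference was 0.95 ± 0.25 (edgeR adjusted p = 0.0338), against 0.48 ± 0.24 in controls (adjusted p = 0.247).

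That sex difference in Npc1b was close to the threshold. It did not pass without replicate 10, 11, 12, 14 or 16 (adjusted p = 0.0524, 0.122, 0.0877, 0.0664 and 0.0699), while the log2 value stayed between 0.78 and 1.1. Npc2b was at 0.35 (adjusted p = 0.472) in the same comparison and passed without replicate 16, at 0.71 (0.0328). The difference between the sexes in the response of Npc1b to the RNAi genotype was 0.48 ± 0.34 (adjusted p = 0.669). Over the family, 0 members passed the interaction test by edgeR, where 1.07% of all genes did, and DESeq2 and limma voom called 0. An unadjusted edgeR p below 0.05 was found for 0 members, where 969 of the 9314 tested genes had 0.0403 or lower. The 6 fat body markers summed to 76.7 to 270 CPM in RNAi-labelled females and 30.7 to 58.1 CPM in the males. Of them, 3 of 6 were called higher in females, where 2.85% of all tested genes were. The yolk protein genes Yp1, Yp2 and Yp3 averaged 17.2, 20.7 and 40.3 CPM in these females and 0.0961, 0.106 and 4.31 CPM in the males. The others, Lsp2, fit and to, averaged 0.262, 0.232 and 58 CPM in females and 0.804, 0.102 and 38.7 CPM in males. The sum is therefore not read as an amount of fat body tissue. The 7 midgut region factors summed to 457 to 544 and 275 to 442 CPM, with 1 of 7 higher. In controls, 3 of 6 fat body markers and 2 of 7 region factors were also higher in females. There 10.3% of all tested genes were called in either direction, and Npc1b was at 0.48 ± 0.24 without a call. The part of these markers in the Npc1b value was not tested.

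Some markers of gut cell types rose as Npc1a and Npc2a did. Over all tested genes, 18.5% rose in females and 21.7% in males. Of 6 enterocyte markers, 4 rose in both sexes, and their summed level was 2930 to 3740 CPM in female controls, 6820 to 7650 in RNAi-labelled females, 3830 to 4090 in male controls and 7700 to 10300 in RNAi-labelled males. Of 5 stem cell and enteroblast markers, 5 rose in females and 3 in males, from sums of 47.2 to 109 and 65.2 to 109 CPM to sums of 136 to 195 and 148 to 234 CPM. No marker of either list was at 0 in a whole group. No enteroendocrine or visceral muscle marker was called between genotypes. Cell numbers and RNA per cell cannot be told apart in whole midguts, and the part of these markers in the family's values was not tested.

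Genes upstream and downstream of the family in sterol handling were read from lists chosen with earlier results of these data known. Beside the counts of each list below, 18.5% of all tested genes rose and 17.6% fell in females. In males 21.7% rose and 17.7% fell. The lists were not tested as sets, so their counts are not read as responses of a pathway. Among the genes listed as acid lipases, 4 of 5 were tested. Of these, 1 rose and 2 fell in females, and 1 rose and 3 fell in males. Lip3 fell, with a log2 fold change of −4.27 in females and −5.59 in males (edgeR adjusted p = 7.37e-07 and 3.92e-08). The gut lipase mag, which hydrolyses dietary triglyceride and sterol ester, fell as well, at −3.59 and −3.31 (adjusted p = 3.78e-05 and 4.97e-05). Lip4 instead rose by 3.16 and 2.78 (adjusted p = 7.41e-06 and 9.88e-06). The list's median log2 fold change over its 4 tested genes was −2.23 in females and −2.3 in males, with genes on both sides of 0.

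Genes for moving and esterifying sterol inside the cell were mixed: of 7 tested, 3 rose and 2 fell in each sex, with medians of 0.38 and 0.26. ScpX, a sterol carrier protein with a thiolase domain, fell, at −0.49 in females and −1.24 in males (edgeR adjusted p = 0.0115 and 4.26e-06). Start1, a START-domain lipid transfer protein, rose by 0.81 and 0.65 (adjusted p = 0.00019 and 0.00102). The oxysterol-binding protein relative CG42668 rose by 0.90 and 0.76 (adjusted p = 7.05e-05 and 0.000245). The female fall of ScpX was not called with scaling by total counts (adjusted p = 0.767).

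Of 7 regulators that respond to sterols and lipids, 3 rose and none fell in each sex: EcR, a steroid hormone receptor, its partner usp, and Hr96, a nuclear receptor that binds cholesterol and controls lipid genes of the gut. EcR rose by 0.69 on the log2 scale in females and 0.70 in males, usp by 0.36 and 0.29, and Hr96 by 0.49 and 0.38, with edgeR adjusted p from 0.0117 to 0.0441. These calls depended on single libraries and, in males, on the analysis. EcR did not pass without replicate 2 in females (adjusted p = 0.0519) or replicate 5 in males (0.0551). In females usp did not pass without replicate 2 or 10 (0.0758 and 0.0505), and Hr96 without replicate 2 or 4 (0.0791 and 0.063). In males usp held only on leaving out replicate 9, 10 or 16, and Hr96 only on leaving out replicate 1, 3 or 16; each was lost without any 1 of the other 13 libraries (adjusted p up to 0.126 and 0.127). With all libraries, the male call of usp was lost with median-of-ratios scaling (0.0658), no filter (0.063), limma voom (0.0513) and a fit to the groups compared (0.11). That of Hr96 was lost with median-of-ratios scaling (0.0724), no filter (0.0677) and DESeq2 (0.0512).

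Among 5 lipoprotein genes, which export lipid from the gut and take it up, the receptor LpR1 fell, at −1.96 in females and −2.98 in males (edgeR adjusted p = 0.000898 and 2.26e-05). The related receptor LpR2 rose by 0.69 and 1.62 (adjusted p = 0.0272 and 3.72e-05). In females LpR2 did not pass without replicate 1, 2, 10 or 12 (adjusted p = 0.0628 to 0.108). The transfer protein Mtp, which loads lipid onto lipoproteins, fell by 0.55 in females (adjusted p = 0.0104) and was at −0.33 in males (adjusted p = 0.107); the female call was lost with scaling by total counts (0.646). In all, 1 gene of the list rose and 2 fell in females, and 1 rose and 1 fell in males.

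Of the 11 tested ABCG transporters, relatives of the mammalian sterol exporters, 4 rose and 2 fell in females, and 3 rose and 2 fell in males. Over all tested genes, 36.1% changed in females and 39.4% in males. CG9664 fell, at −0.54 in females and −1.18 in males (edgeR adjusted p = 0.0117 and 1.8e-05; 0.635 in females with scaling by total counts), and CG32091 rose by 1.22 and 1.24 (0.00301 and 0.00215). CG4822 rose by 1.59 and 1.09 (0.00335 and 0.0279), and its male call was lost without replicate 6, 7, 8, 13 or 15 (0.0548 to 0.0873). In ecdysteroid synthesis, which uses dietary sterol, 4 of 9 genes were tested and 1 fell in each sex. This was shd, the hydroxylase that makes active 20-hydroxyecdysone, at −2.82 and −1.83 (0.000294 and 0.00711).

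Of 13 tested late endosome and lysosome genes, the compartment where NPC proteins work, 4 rose and 2 fell in females and 4 rose and 5 fell in males. Among all tested genes, 36.1% changed in females and 39.4% in males. Rab7, the late endosome GTPase, rose by 0.74 and 0.78 (edgeR adjusted p = 5.57e-05 and 2.25e-05). Gba1a, a glucocerebrosidase, fell, at −0.88 and −1.66 (0.00241 and 7.67e-06; 0.0653 in females with scaling by total counts), and the lysosomal membrane protein Cln3 also fell, at −0.95 and −1.47 (0.00196 and 3.81e-05). The list's medians were −0.11 in females and 0.03 in males, with members on both sides of 0. CtsL1, a lysosomal cysteine protease named after its values were seen, rose by 0.82 and 0.89 (0.000232 and 8.77e-05). Of the 51 tested genes of the 7 sterol lists, 0 passed the interaction test by edgeR, and DESeq2 called 1 and limma voom 0. An unadjusted edgeR p below 0.05 was found for 9 of them. Over all 9314 tested genes, 969 had an unadjusted interaction p of 0.0403 or lower. The share below 0.05 was not computed, so no excess is read from the 9.

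Between females and males, the genes of these lists that passed are named here. Over all tested genes, 10.3% were called between the sexes in controls and 5.56% in RNAi-labelled libraries. No trait of the lists is read from these calls. Of the genes named, apolpp, CG9663, Ppt1 and Cln7 are given after their values were seen. In controls apolpp, the core lipoprotein, was higher in females by 1.98 on the log2 scale (edgeR adjusted p = 0.0349), CG9663 was higher by 0.75 (0.0334), and ScpX was at −0.52 (0.0291). Among RNAi-labelled libraries CG9664 was higher in females by 1.1 (0.000771), and the lysosomal genes Ppt1 and Cln7 were at −0.71 and −0.59 (0.0208 and 0.0427).

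**Figure D4:**
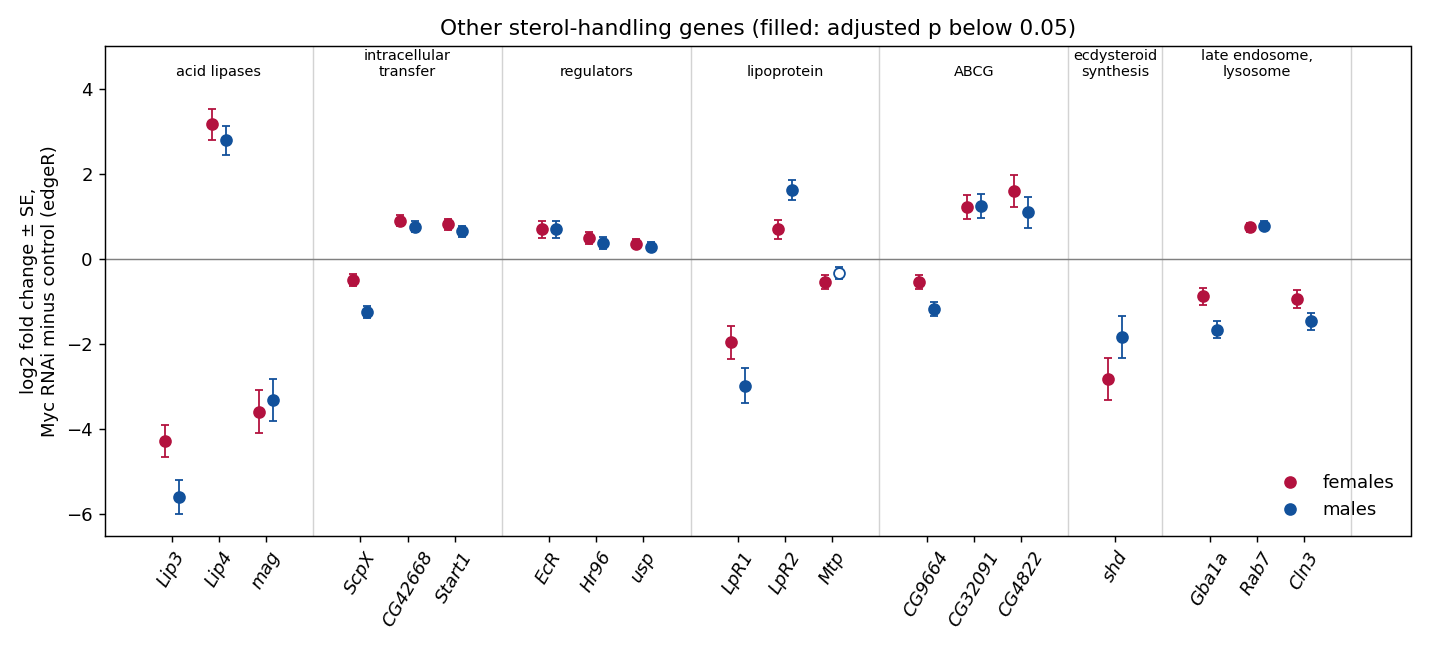
Log2 fold changes with standard errors, RNAi-labelled libraries against controls in females and males, of the changed members with the lowest adjusted p of each list. CtsL1, apolpp, CG9663, Ppt1 and Cln7, named in the text after their values were seen, are not shown. Filled points passed the edgeR test; Lip3 and mag lie lowest and Lip4 highest.

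Genes that adjoin family members did not all follow them. Prosalpha6, a proteasome subunit whose start lies 134 bp from Npc1a in head-to-head orientation, rose by 0.61 in females and 0.96 in males (edgeR adjusted p = 0.0104 and 0.000307). On the other side of Npc1a, ath, 90 bp away, fell by 0.49 in females (0.00476) and was at −0.10 in males (0.548). Next to Npc2a, Got2 at 531 bp was at −0.06 and −0.42 (0.817 and 0.0523), so the nearest tested neighbour gave no call beside the rise of Npc2a. Next to Npc2b, the nearest neighbour, CCHa1 at 78 bp, was at 0.25 and −0.02 (edgeR adjusted p = 0.507 and 0.96), with no call, as for Npc2b. On the other side of Npc2b, foxo, a transcription factor gene at 1538 bp, fell, at −1.07 and −1.18 (5.66e-05 and 1.5e-05). Sec10, an exocyst gene 356 bp from Npc2f, rose by 0.67 and 0.42 (0.000272 and 0.00819), while Npc2f had negative log2 values without a call. On the other side of Npc2f, Kal1 at 458 bp was at −0.57 and 0.21 without a call (edgeR adjusted p = 0.178 and 0.636). Further neighbours of members are not given here.

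The genes most like each member across libraries were found as the smallest root mean square difference of centred log2 CPM over the 16 libraries. For Npc1a these were ClC-b and shi, at 0.12 and 0.13 (median over all tested genes 0.67). Npc1b was closest to Sptr and Vha100-4, at 0.27 and 0.29 (median 0.67), and Npc2a to pch2 and asf1, at 0.26 and 0.27 (median 1.11). Npc2f was closest to ND-PDSW and Spase25, both at 0.21 (median 0.64), and Npc2b to TfIIA-S and mRpL40, both at 0.22 (median 0.55). Npc2d lay nearest Atg12 and yip2, at 0.29 and 0.3 (median 0.6). Npc2g and Npc2h, with their few reads, had no named gene nearer than Obp99c at 0.64 and 0.87. No member was among the 2 named genes nearest to another.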

How the data were processed

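Read counts per gene for 16 libraries were deposited by the authors as 1 table of whole numbers without normalization. Per the submitters' processing notes, dm6, TopHat2 2.0.11 and featureCounts were used; for the annotation, the strand setting and the rule for multi-mapping reads, the sources used here give nothing. Per the labels, poly(A) RNA was made into directional libraries. Symbols were matched to current names, and positions and exon lengths come from Ensembl's BDGP6 annotation (1-based), the same assembly as dm6. No sequence was used here.

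edgeR 4.0.16 in R 4.3.3 was used with TMM scaling and filterByExpr by group (minimum count 10), leaving 9314 genes. Its quasi-likelihood test used 1 model of 4 group means for the 16 libraries together, with Benjamini-Hochberg adjustment across the tested genes; genes below 0.05 are called changed. The script was tested on simulated counts. All 24 replicate pairs differed by more than sampling noise. The design text describes independent pools, and p-values measure the spread between pools. Alternatives were scaling by total counts, DESeq2's size factors, no filter, at least 1 CPM in 4 libraries, DESeq2 1.42.0, limma voom 3.58.1, a fit to the groups compared, and leaving out each library. Samples were grouped by their labels, and all were used.

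The members follow from their names, and the family, gene lists and tests were chosen with earlier results of these data known. From each list, up to 3 changed members with the lowest adjusted p were to be named; all tested members of the family are described. Fold changes are log2 differences with standard errors.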

Additional observations from a re-analysis of the deposited data

Results flagged for a closer look

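In 2 of 32 sets of 4 libraries (8 members in 4 groups), 1 library stood apart from the other 3 by Dixon's criterion, which chance alone meets in about 5% of sets. Both are replicate 16 of the RNAi-labelled males. Npc2b was 12.8 CPM there against 5.81 to 6.44 in the other 3 libraries, and Npc2h was 2.41 CPM against 0.179 to 0.429. The same library held 24722 reads of testis germline markers. It was also above the rest of its group for Npc2a, Npc2d and Npc2f and below it for Npc1a and Npc1b. The part of testis RNA in these values was not tested.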

How the results depend on the processing

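Npc1a and Npc2a were called in both sexes under every alternative, from 0.8 to 1.33 and 1.95 to 2.51 on the log2 scale in females and from 1.01 to 1.58 and 1.69 to 2.33 in males. Scaling by total counts, in place of TMM factors of 0.691 to 1.01 in controls and 1.12 to 1.23 in RNAi-labelled libraries, moved the median of all genes to 0.43 in females and 0.52 in males. Relative to that median, Npc1a was at 0.9 and 1.06, Npc2a at 2.08 and 1.81, Npc1b at −0.15 and −0.65 and Npc2f at −0.34 and −0.67 in females and males. Scaling by total counts raised the number of members changed from 2 to 4 in females and from 2 to 5 in males. Added were Npc2b and Npc2d as higher in both sexes and Npc2h in males. Relative to the median, Npc2b was at 0.23 and 0.03 and Npc2d at 0.24 and 0.31 in females and males, and Npc2h at 2.27 in males. The share of all genes called with this scaling was not computed, so no family result is read from these counts. DESeq2 and limma voom also called 5 in males, but a different set, with Npc1b and Npc2f lower in place of Npc2b and Npc2d higher. Leaving out 1 library gave 2 to 4 members in males, with 4 on leaving out replicate 2. In RNAi-labelled libraries, the 1 member that differed between sexes became 0 without the filter, and 0 to 1 on leaving out 1 library. Sex in controls and the interaction gave 0 throughout.

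Values not called changed sign as follows, and the cause was not tested. Total counts gave 0.28, 0.08 and 0.37 for Npc1b, Npc2f and Npc2h in females, 0.15 for Mtp in males, 0.08 for Npc1a between sexes in controls and 0 for Npc2a between sexes in RNAi-labelled libraries, as did no filter. With 1 library left out, female values ran from −0.32 to 0.06 for Npc1b, −0.1 to 0.52 for Npc2d, −0.5 to 0.8 for Npc2g and −0.75 to 0.31 for Npc2h, and male Npc2b from −0.29 to 0.18. Between sexes in controls, Npc1a ran from −0.11 to 0.07, Npc2d from −0.65 to 0.02 and Npc2f from −0.06 to 0.44. Between sexes in RNAi-labelled libraries, Npc2a ran from −0.11 to 0.14 and Npc2g from −0.36 to 0.99. Interaction values ran from −0.46 to 0.2 for Npc2d and −1.37 to 0.13 for Npc2g. The numbers of regulators changed became 6 in females and 5 in males with total counts, which moved the median of all genes to 0.43 and 0.52. The share of all genes called with that scaling was not computed, so no result about regulators is read from these numbers. Sex calls in the sterol lists, of 0 to 2 genes a list, moved under several alternatives. Depth limits Npc2c, Npc2e, Npc2g and Npc2h. No paired analysis was possible because the groups share no replicate number.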
